A study of Homo sapiens with 24 samples.

Results

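The interaction of the KDM5C and YY1 knockdowns was examined in HK-2 cells, an immortalised line of human kidney proximal tubular epithelium. The members were chosen by their labels, as the 12 HK-2 libraries of the 24 in the series, 3 in each of 4 groups. The shNC cells carried a control hairpin, shKDM5C cells a hairpin against KDM5C, shYY1 cells a hairpin against YY1, and Dsh cells (double knockdown) hairpins against both. All hairpins were delivered in the pLKO.1 vector. Dsh cells were derived from YY1-depleted cells by a second infection with a KDM5C hairpin plasmid that carried GFP. They were kept by puromycin resistance and green fluorescence, whereas the other stable cells were described with puromycin selection. Whether the other groups also received a second, control infection is not given in the sources used here. The part of that step in the interaction was not tested. The hairpins used, of those designed per gene, were not named. All cells grew in DMEM with fetal bovine serum. Separate cultures are not named in the labels, so the p-values below measure the spread between these libraries, which may be technical. The series also holds the same 4 groups in ACHN, a renal cancer line.

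KDM5C is a histone demethylase on the X chromosome that removes methyl groups from lysine 4 of histone H3, a mark of active promoters. YY1 is a zinc finger transcription factor that activates or represses genes depending on its partners. Proximal tubular cells reabsorb solutes from the filtrate, and in culture they can also take on features of injured epithelium, with cytokine secretion and deposition of matrix. If the knockdowns acted separately on a gene, the log2 effect of both would equal the sum of the single effects. The interaction is what the double knockdown shows beyond that sum (Dsh − shKDM5C − shYY1 + shNC, log2). A positive interaction means that Dsh cells had more of a transcript than the single effects added up to. It can come from a rise in Dsh cells, or from falls in the single knockdowns that were not seen in Dsh cells. Below, higher and lower refer to the interaction of a gene unless a group is named, and levels are CPM, read counts scaled to library size.

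Between 15926561 and 18755684 read pairs were counted on genes in the 12 libraries. Mitochondrial transcripts took 4.75% to 5.52% of the counts in 11 libraries and 11.83% in shKDM5C replicate 1. This library also stood apart in its gene profile. Its root mean square log2 distance was 0.811 to shKDM5C replicate 2 and 0.806 to replicate 3, where the other 11 libraries differed by 0.216 to 0.262 within groups and by 0.382 to 0.606 between groups. The deviation of shKDM5C replicate 1 from its group fell with the GC content of the transcripts (Spearman's rho = -0.718 over 13023 genes, which are not independent). In the 9 libraries of the other groups, that rho lay between -0.331 and 0.367. Interactions are therefore given with all 12 libraries and, in square brackets or in words, without this one. Counts over a list are of genes called in both fits unless stated, and a gene is called higher or lower only where both fits agree. Single effects described as a rise or a fall passed the test without that library (edgeR).

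With all 12 libraries, 890 of 17093 genes tested (5.21%) had a positive interaction and 752 (4.4%) a negative one at an adjusted p-value under 0.05. Without shKDM5C replicate 1 the counts were 2650 (15%) and 2415 (13.7%) of 17642 genes. Of the 1642 genes called with 12 libraries, 1638 were called in the same direction without that library, 888 higher (5.2% of the genes tested in both) and 750 lower (4.39%). No gene was called in opposite directions. Leaving out 1 library of shNC, shYY1 or Dsh cells gave 957 to 1120 calls in all, and leaving out shKDM5C replicate 2 or 3 gave 1889 and 1830. Genes near the threshold therefore lost their call, and where this happened the highest adjusted p is given. Computed from CPM without logarithms, the interaction had the same sign for 1634 of the 1638 genes and the opposite sign for 4. An absolute log2 interaction of at least 1.5 was reached by 274 of the genes called with 12 libraries on the positive side (1.6%) and 85 on the negative side (0.497%). After each library's dependence on GC content was removed, 1279 genes were called higher and 1818 lower, so that the larger number was now on the negative side.

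**Figure D1:**
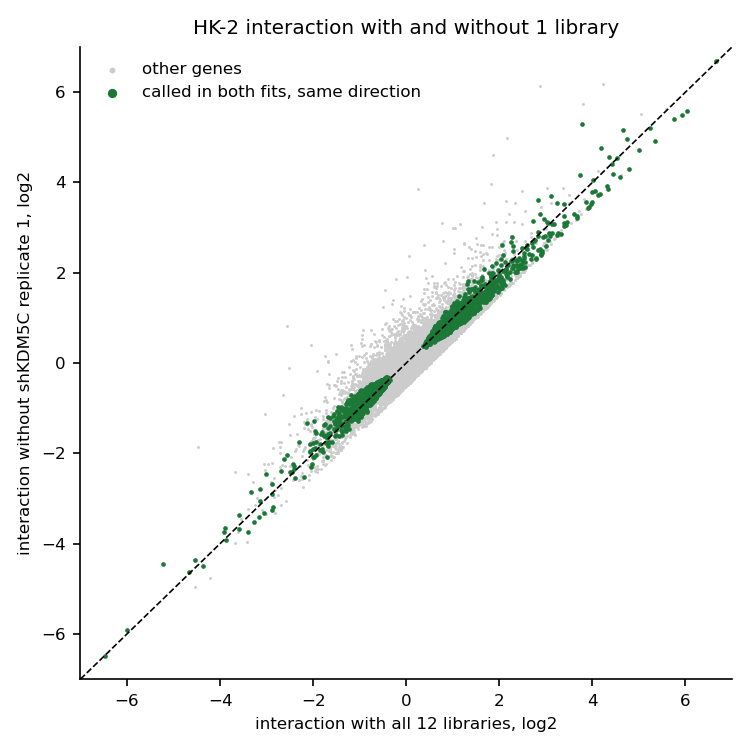
Interaction of each gene tested in both fits, with all 12 HK-2 libraries (x axis, log2) and without shKDM5C replicate 1 (y axis, log2), where green points are the 1638 genes called in both fits in the same direction and the dashed line marks equal values. The green points follow the line on both sides of 0, and 6 genes lie beyond the axes.

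The interaction did not pass the test for the targeted genes with 12 libraries. KDM5C (ENSG00000126012, chromosome X from 53191321 to 53225422, GRCh38) had 193, 191 and 197 CPM in shNC, 37.4, 68.5 and 67.5 CPM in shKDM5C, 261, 246 and 233 CPM in shYY1 and 68.3, 66 and 72.3 CPM in Dsh libraries. It was thus reduced in every library with its hairpin and higher in shYY1 than in shNC cells. The interaction of KDM5C was -0.10 (SE 0.244, edgeR adjusted p = 0.843), and -0.32 (SE 0.0773, edgeR adjusted p = 0.00244) without shKDM5C replicate 1, the library with the lowest KDM5C. YY1 (ENSG00000100811, chromosome 14 from 100238298 to 100282792) had 214, 216 and 203 CPM in shNC, 275, 217 and 228 CPM in shKDM5C, 62.2, 68.8 and 63.4 CPM in shYY1 and 76.1, 75.6 and 73.2 CPM in Dsh libraries. Its interaction was 0.03 (SE 0.138, edgeR adjusted p = 0.926), and 0.15 (SE 0.0771, edgeR adjusted p = 0.159) without that library. The paralog KDM5B, another demethylase of the same mark, had 121, 128 and 129 CPM in shNC, 219.7, 123 and 119 CPM in shKDM5C, 124, 126 and 123 CPM in shYY1 and 192, 189 and 191 CPM in Dsh libraries. All 3 Dsh libraries were above every shNC and shYY1 library, but shKDM5C replicate 1 exceeded them. Its interaction was 0.33 with 12 libraries (adjusted p = 0.465, edgeR) and 0.69 without that one (adjusted p = 1.05e-08, edgeR). KDM5A had an interaction of -0.16 (adjusted p = 0.749, edgeR), and 0.20 (adjusted p = 0.0782, edgeR) without it. The YY1 paralog YY2 had -1.07 [-0.89] (edgeR adjusted p = 0.0339, and up to 0.0917 with another library left out), but 39.9% of its exon bases are shared with MBTPS2, on the same strand. ZFP42 had no counts in any of the 12 libraries. Of 12 renal tubular epithelium markers, 10 reached 1 CPM on average, whereas ANPEP and AQP1 had at most 0.403 and 0.449 CPM in a library. UMOD, AQP2, KDR, HBA2 and HBG1 were at 0 in all 12 libraries.

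Promoters were searched for AANATGGC, the core of the YY1 motif, on either strand (GCCATNTT on the other), in windows from 250 bases before to 50 after a start site (RefSeq, GRCh38.p14). Of 27305 genes with a window, 2176 (7.97%) held a match, and of 10754 protein-coding genes tested with a window, 12.04% did. Windows were found for 81% of the protein-coding genes called lower and 77% of those called higher. The latter is under 80%, so the comparison between called genes is void. Matches were found in 3 of the 26 genes with a window among the 28 with the largest interactions, namely ID3, NEBL and PLEKHG4B. They are shown here with KDM5C, which was higher in shYY1 cells, with LMNB1 and with the ribosomal protein gene RPL21. Capitals mark the match, and each is written 5′ to 3′ on the strand of the gene.
KDM5C: gctgacaaaccAAGATGGCggcggcggcgc
ID3: ggccgaggcggGCCATTTTgaataaagagg
NEBL: aaacaaaacgaGCCATATTcatttattaat
PLEKHG4B: AAAATGGCaggtccccgag
LMNB1: ggggcgtgccgGCCATGTTggggagtgcgg
RPL21: cggccggaaccGCCATCTTccaggtagggc
The windows lie at chrX:53225181-53225210, minus strand (KDM5C), chr1:23559551-23559580, minus strand (ID3), chr10:21174891-21174920, minus strand (NEBL), chr5:91918-91936, plus strand (PLEKHG4B), chr5:126777028-126777057, plus strand (LMNB1) and chr13:27251563-27251592, plus strand (RPL21). Counted from 1 at the start site, the match in KDM5C begins at base 9 and that in RPL21 at base 17, inside the transcribed part, and that in ID3 begins 68 bases before it. As counted here, PLEKHG4B runs from 140258 to 189970 on chromosome 5 and NEBL from 20779973 to 21174187 on chromosome 10. The windows of PLEKHG4B and NEBL therefore belong to start sites outside the genes as counted. A match describes letters and is no measurement of binding.

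Among protein-coding genes called in both fits with 10 CPM or more in a group, the largest positive interaction was that of MMP1, a collagenase that cleaves fibrillar collagen. MMP1 had 6.69, 6.79 and 8.35 CPM in shNC, 7.58, 5.17 and 5.21 CPM in shKDM5C, 9.62, 10.2 and 10.5 CPM in shYY1 and 174, 159 and 176 CPM in Dsh libraries. The Dsh libraries lay far above the other 9, which stayed close together. The interaction was 4.36 (SE 0.212, edgeR adjusted p = 7.94e-07), and 4.57 (SE 0.152, edgeR adjusted p = 1.14e-18) without shKDM5C replicate 1. INHBE, a subunit of activins that is induced by amino acid and secretory stress, had 8.47, 6.51 and 8.98 CPM in shNC, 2.93, 7.66 and 6.81 CPM in shKDM5C, 6.28, 6.09 and 8.62 CPM in shYY1 and 79.1, 76.5 and 68 CPM in Dsh libraries. Here too no other library came near the Dsh libraries, and shKDM5C replicate 1 was the lowest of all. The interaction was 3.85 (SE 0.376, edgeR adjusted p = 9.11e-05), and 3.57 without that library. The growth factor gene CSF2 had 2.56, 3.93 and 4.91 CPM in shNC, 1.07, 4.43 and 4.28 CPM in shKDM5C, 2.93, 2.72 and 2.39 CPM in shYY1 and 24.9, 24.7 and 26.2 CPM in Dsh libraries, with an interaction of 3.42 [3.06] (SE 0.512, edgeR adjusted p = 0.00141). ASB2, a subunit of a ubiquitin ligase, had 3.51, 2.69 and 3.13 CPM in shNC, 3.65, 4.86 and 3.4 CPM in shKDM5C, 2.09, 3.38 and 3.38 CPM in shYY1 and 35.6, 30.9 and 32.7 CPM in Dsh libraries. Its interaction was 3.13 [3.09] (SE 0.288, edgeR adjusted p = 6.09e-05). In neither gene did a single knockdown pass the test, and the effect of both (2.74 and 3.42, log2, without shKDM5C replicate 1) made up most of the interaction. SIGLEC15, a sialic acid binding receptor, rose in the same way (2.78 [2.73]), as did G0S2, an inhibitor of lipolysis (2.91 [2.47]).

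Other genes fell in a single knockdown and rose in Dsh cells. The cytokine gene IL11, known for promoting fibrosis, had 10.3, 11.3 and 8.09 CPM in shNC, 0.644, 4.38 and 3.68 CPM in shKDM5C, 5.86, 6.82 and 5.71 CPM in shYY1 and 35.1, 28.4 and 36 CPM in Dsh libraries. Both shKDM5C replicates 2 and 3 were below every shNC library, and replicate 1 was lower still. The interaction of IL11 was 4.16 (SE 0.525, edgeR adjusted p = 0.000484), and 3.74 (SE 0.221, edgeR adjusted p = 1.95e-13) without that library. The ligand gene WNT9A (4.06 [3.81]), SEMA7A, a membrane-anchored semaphorin (3.39 [3.09]), KCNN4, a potassium channel (3.05 [2.72]), and PLEKHG4B (2.88 [3.29]) had the same order of groups, with shKDM5C below shNC and Dsh above it. NT5E encodes CD73, the enzyme that makes adenosine outside the cell. NT5E had 52.6, 65.5 and 50.2 CPM in shNC, 32.7, 20 and 23.7 CPM in shKDM5C, 72.8, 71.8 and 67.8 CPM in shYY1 and 256, 233 and 262 CPM in Dsh libraries. Each shKDM5C library was below each shNC library, and Dsh cells reached several times the shNC level, so the interaction was 2.97 [3.20] (SE 0.224, edgeR adjusted p = 1.23e-05). The lysophosphatidic acid receptor gene LPAR5 was different. It had 13.1, 12.1 and 10.5 CPM in shNC, 2.65, 4.28 and 4.23 CPM in shKDM5C, 3.65, 4.65 and 3.61 CPM in shYY1 and 9.54, 10.3 and 9.78 CPM in Dsh libraries. Both single knockdowns lowered LPAR5, and the Dsh libraries lay just below the shNC libraries, with an interaction of 2.97 [2.81] (SE 0.271, edgeR adjusted p = 6.06e-05). DCLK1, a kinase that binds microtubules, also fell in both single knockdowns, by 1.03 in shKDM5C and 1.32 in shYY1 cells on the log2 scale without shKDM5C replicate 1, and was higher in Dsh than in shNC cells (0.77). Of these 14 genes with the largest positive interactions, 13 had all Dsh libraries above the other 9. LPAR5 did not.

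On the negative side, a number of genes were raised by the KDM5C hairpin alone. SLC34A2, a sodium phosphate transporter of epithelia, had 0.39, 0 and 0.313 CPM in shNC, 12.8, 12.6 and 12 CPM in shKDM5C, 0.299, 0 and 0.408 CPM in shYY1 and 0.477, 0.295 and 0.69 CPM in Dsh libraries. It was close to absent outside shKDM5C cells, so its interaction of -4.66 [-4.63] (SE 1.07, edgeR adjusted p = 0.0167) rests on counts near 0 in 3 groups. It was not called without shYY1 replicate 1 or 3 (adjusted p up to 0.134). The glucose transporter gene SLC2A2 had 3.51, 2.75 and 2.14 CPM in shNC, 17.9, 15.1 and 13.1 CPM in shKDM5C, 4.84, 4.34 and 4.72 CPM in shYY1 and 6.38, 3.48 and 4.37 CPM in Dsh libraries, with an interaction of -2.42 [-2.28] (SE 0.338, edgeR adjusted p = 0.000931). PDK4, which restrains pyruvate oxidation, had 2.45, 2.36 and 2.66 CPM in shNC, 11.4, 8.39 and 11.3 CPM in shKDM5C, 2.75, 3.92 and 2.8 CPM in shYY1 and 2.44, 3.37 and 3.62 CPM in Dsh libraries, with an interaction of -2.06 [-1.97] (SE 0.31, edgeR adjusted p = 0.00149). In both genes the shKDM5C level was not reached in Dsh cells. DHRS9, a retinol dehydrogenase, rose in shKDM5C cells and fell below shNC in Dsh cells, with 12.7, 8.92 and 12.6 CPM in shNC, 32.8, 32.3 and 30.5 CPM in shKDM5C, 6.7, 8.99 and 7.92 CPM in shYY1 and 3.46, 3.84 and 4.72 CPM in Dsh libraries. Its interaction was -2.45 [-2.42] (SE 0.247, edgeR adjusted p = 0.000102). PAX2, a transcription factor of kidney development, rose in shKDM5C and fell in shYY1 cells, with 9.81, 8.08 and 11.6 CPM in shNC, 15.9, 28.5 and 36.3 CPM in shKDM5C, 2.27, 3.26 and 2.8 CPM in shYY1 and 2.03, 2.24 and 1.26 CPM in Dsh libraries. Dsh cells resembled shYY1 and not shKDM5C cells in PAX2, and the interaction was -2.04 [-2.29] (SE 0.436, edgeR adjusted p = 0.0112).

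ZBED2, a transcription factor known to dampen interferon responses, had 12.7, 17.6 and 15.1 CPM in shNC, 5.58, 5.12 and 7.3 CPM in shKDM5C, 14.4, 14.3 and 17.6 CPM in shYY1 and 0.417, 0.649 and 0.172 CPM in Dsh libraries. It was at the shNC level with the YY1 hairpin alone and below 1 CPM with both. The interaction was -3.88 (SE 0.389, edgeR adjusted p = 0.000101), and -3.91 without shKDM5C replicate 1. CD24, a surface glycoprotein of progenitor cells in the tubule, had 1042, 1016 and 1029 CPM in shNC, 1596, 1268 and 1267 CPM in shKDM5C, 919, 988 and 924 CPM in shYY1 and 296, 301 and 303 CPM in Dsh libraries. The Dsh libraries agreed closely and lay below every other library, while shKDM5C libraries lay above shNC. The interaction was -2.07 (SE 0.133, edgeR adjusted p = 7.27e-06), and -1.94 (SE 0.0558, edgeR adjusted p = 3.49e-20) without that library. CD24 has near-identical pseudogene copies, which makes its counts uncertain. KITLG, the ligand of the receptor KIT, had 119, 117 and 111 CPM in shNC, 257, 151 and 161 CPM in shKDM5C, 161, 179 and 157 CPM in shYY1 and 65.9, 66.9 and 61 CPM in Dsh libraries, with an interaction of -2.07 [-1.78] (SE 0.232, edgeR adjusted p = 0.00022). It was higher than shNC in both single knockdowns and lower in the double knockdown. NEBL, a protein of the actin cytoskeleton, had -2.62 and -2.12 with and without shKDM5C replicate 1. MNS1 had -1.97 and -1.51, with 18.5% of its exon bases shared with TEX9 on the opposite strand. Dsh libraries were below the other 9 in 11 of the 14 genes with the largest negative interactions. The exceptions were SLC34A2, SLC2A2 and PDK4.

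**Figure D2:**
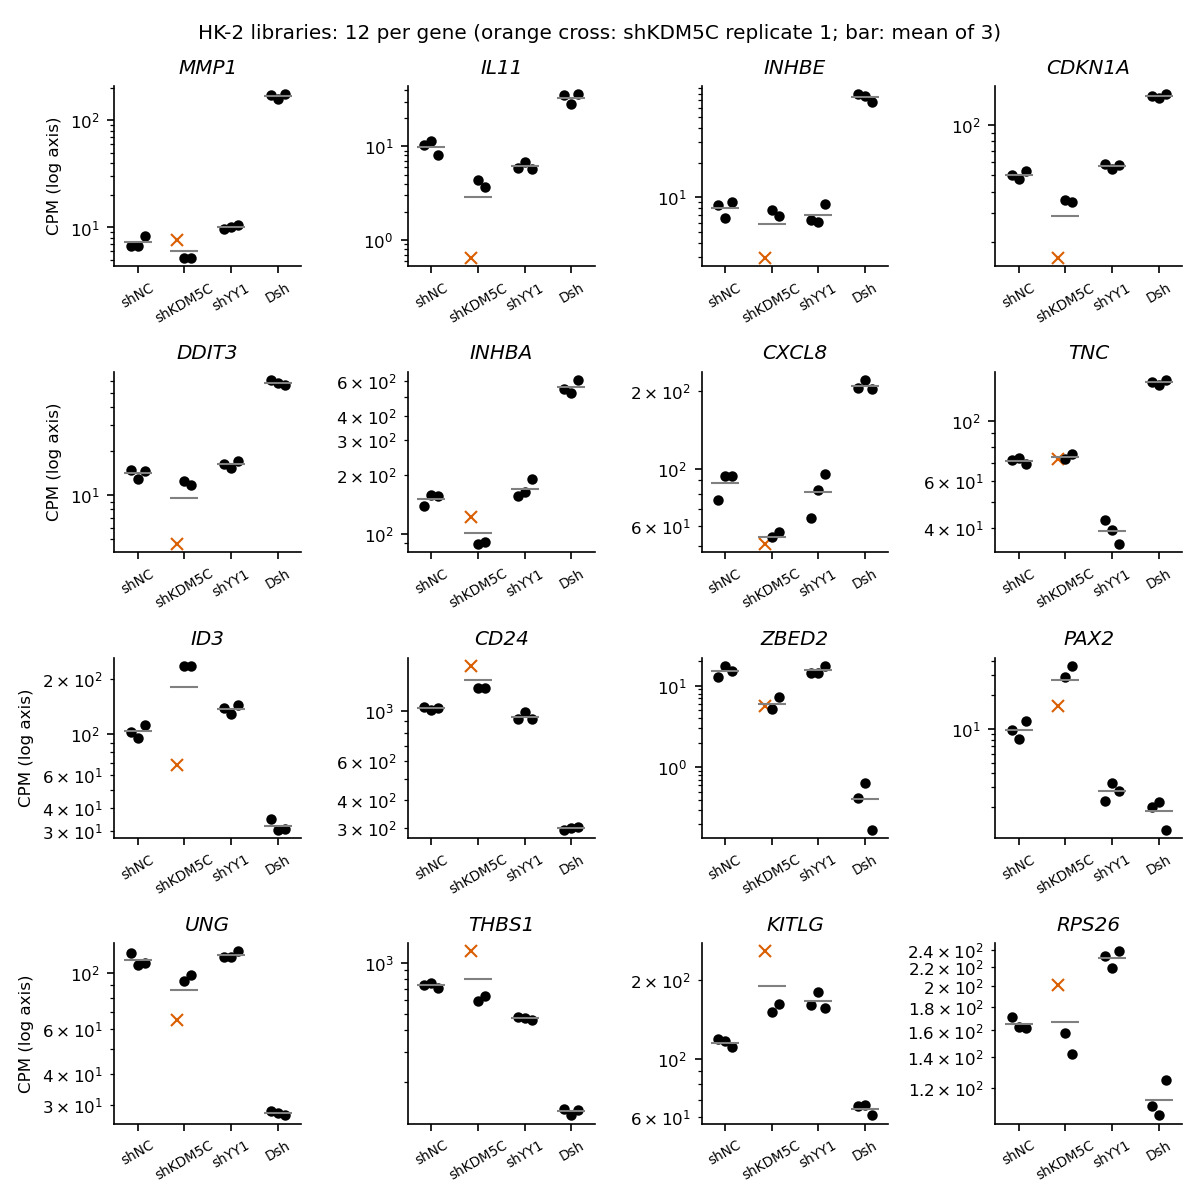
CPM of 16 genes in the 12 HK-2 libraries (y axes, log scale) by group (x axes), where each point is a library, the orange cross is shKDM5C replicate 1 and the grey bar is the mean of 3. Dsh points lie apart from the other groups in MMP1, INHBE and CD24, whereas Dsh and shYY1 points lie together in PAX2.

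Sorted by their components in the fit with 12 libraries, 751 of the 1642 genes called (45.7%) changed in Dsh cells and in neither single knockdown. The share of genes called against shNC was 7.84% in shKDM5C, 5.42% in shYY1 and 22.9% in Dsh cells. The 387 genes of this kind with a positive interaction had a median log2 effect of 0.963 in Dsh cells, and the 364 with a negative one -0.696. In 286 genes (17.4%) only the KDM5C hairpin had a called effect, and the interaction went against it. Within these, 165 were lower in shKDM5C cells, with a median of -0.983 there and 0.256 in Dsh cells, and IL11, WNT9A and NT5E were among them. A further 159 genes (9.68%) stood in the same relation to the YY1 hairpin. Both single knockdowns moved 55 genes (3.35%) in 1 direction against the interaction, LPAR5 and DCLK1 among them. Interactions that enlarged the single effects were fewer, with 48 genes for shKDM5C alone, 42 for shYY1 alone and 9 for both. In 263 genes (16%) no component passed the test. Without shKDM5C replicate 1 the genes changed in Dsh cells alone were 1540 of 5065 (30.4%), and those in which the interaction went against a shYY1 effect were 1107 (21.9%). The sorting describes which effects passed a threshold and was not itself tested. Each single effect enters the interaction with a minus sign and comes from the same libraries. Spread between those libraries therefore favours interactions that go against a single effect, so the sizes of these classes cannot be compared as a finding.

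**Figure D3:**
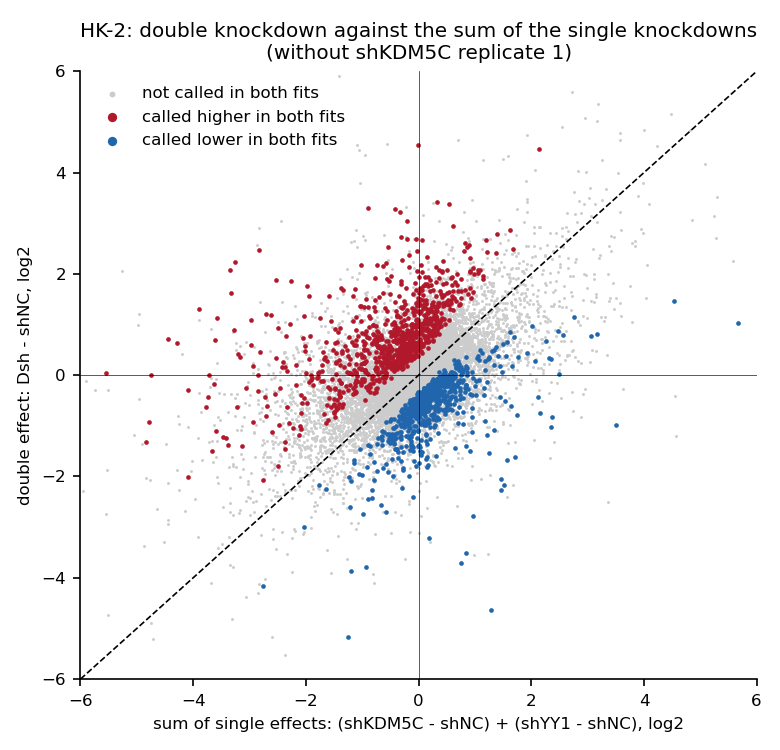
Log2 effect of the double knockdown against shNC (y axis) and sum of the log2 effects of both single knockdowns (x axis) for each gene, without shKDM5C replicate 1, where the dashed line marks additive effects. Red points are the 888 genes called higher and blue points the 750 called lower in both fits, many of them near 0 on the x axis, and 32 genes lie beyond the axes.

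Genes were then examined by lists of pathways and functions, whose counts are read against the 5.2% of all genes called higher and the 4.39% called lower in both fits. The median interaction over all genes was -0.0152 with 12 libraries and 0.0196 without shKDM5C replicate 1. AP-1 and immediate early genes, transcription factors and feedback regulators that answer growth factors and stress, had 13 of 25 tested members higher and 0 lower, and a median interaction of 1.15 (0.852 without that library). FOSL1, an AP-1 subunit, had 32.9, 39.1 and 37.2 CPM in shNC, 9.94, 22.5 and 23 CPM in shKDM5C, 55.2, 58 and 64.8 CPM in shYY1 and 126, 105 and 124 CPM in Dsh libraries, with an interaction of 1.96 [1.69] (SE 0.324, edgeR adjusted p = 0.00246). It fell in shKDM5C cells, rose in shYY1 cells and rose most in Dsh cells. ATF3 had 15.7, 20.4 and 19.4 CPM in shNC, 7.3, 11.1 and 11.6 CPM in shKDM5C, 14.8, 13.6 and 14.6 CPM in shYY1 and 33.9, 31.1 and 28.9 CPM in Dsh libraries, with an interaction of 2.01 [1.85] (SE 0.236, edgeR adjusted p = 0.000304). The stem cell factor gene KLF4 had 1.89 [1.59], IER3 1.84 [1.51], DUSP5, a phosphatase that switches off ERK, 1.72 [1.54] and FOSB 1.44 [1.32]. FOS (1.84 [1.60], adjusted p up to 0.0796 with another library left out) and ZFP36 (1.76 [1.45], adjusted p up to 0.0754 with another library left out), which destabilises cytokine transcripts, were nearer the threshold. BTG2 (1.41 [1.49]), SPRY4 (1.06 [0.94]), KLF6 (0.81 [0.79]), SPRY2 and KLF10 completed the 13. IER3 shares 26.5% of its exon bases with an antisense gene.

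Genes of ATF4 and the unfolded protein response, which answer amino acid shortage and stress of the endoplasmic reticulum, had 12 of 28 higher and 0 lower (median 0.717, and 0.538 without shKDM5C replicate 1). DDIT3, a stress transcription factor also called CHOP, had 14.8, 13 and 14.6 CPM in shNC, 4.65, 12.6 and 11.6 CPM in shKDM5C, 16.2, 15.3 and 17.1 CPM in shYY1 and 61.1, 57.9 and 56.6 CPM in Dsh libraries. The single knockdowns stayed near shNC, apart from the low shKDM5C replicate 1, and Dsh cells were well above. The interaction was 2.39 [2.09] (SE 0.352, edgeR adjusted p = 0.00128), and 28% of the exon bases of DDIT3 are shared with MARS1 on the opposite strand. TRIB3, a pseudokinase induced by ATF4, had 102, 101 and 99.2 CPM in shNC, 61.6, 93.6 and 90.1 CPM in shKDM5C, 109, 125 and 113 CPM in shYY1 and 347, 319 and 292 CPM in Dsh libraries, with an interaction of 1.77 [1.61] (SE 0.196, edgeR adjusted p = 0.000213). ASNS, which makes asparagine, had 37.4 ± 2.71 CPM (SD, n = 3) in shNC and 112 ± 6.45 CPM in Dsh cells, and an interaction of 1.67 [1.70]. CHAC1, which degrades glutathione, had 1.92 [1.64], the cystine transporter gene SLC7A11 1.34 [1.63] and the splicing-activated factor gene XBP1 0.68 [0.72].

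Of 22 targets of p53, 6 were higher and 0 lower (median 0.422, and 0.63 without that library). CDKN1A encodes p21, an inhibitor of cyclin-dependent kinases. CDKN1A had 50.3, 47.7 and 52.9 CPM in shNC, 16.1, 35.6 and 34.5 CPM in shKDM5C, 58.6, 54.9 and 57.6 CPM in shYY1 and 148, 144 and 152 CPM in Dsh libraries. It was lower in shKDM5C than in shNC cells and highest in all Dsh libraries, with an interaction of 2.18 [1.91] (SE 0.3, edgeR adjusted p = 0.000869). The death receptor gene TNFRSF10B had 132, 133 and 136 CPM in shNC, 92.5, 141 and 147 CPM in shKDM5C, 157, 145 and 159 CPM in shYY1 and 469, 470.2 and 481 CPM in Dsh libraries, with an interaction of 1.70 [1.53] (SE 0.196, edgeR adjusted p = 0.000255). PLK3 (1.62 [1.43]), BTG2, SESN2 (1.14 [1.02]) and FAS (1.06 [1.27]) were the other 4 called, where 11.7% of the exon bases of FAS are shared with ACTA2. Among 40 apoptosis machinery genes, 6 were higher and 4 lower. PMAIP1, which encodes the pro-apoptotic protein NOXA, had 1.60 [1.42], and BCL2, which protects against apoptosis, had 45.1, 51.8 and 45 CPM in shNC, 64.8, 56.9 and 53 CPM in shKDM5C, 42.2, 38.7 and 43.4 CPM in shYY1 and 17.9, 17.5 and 17 CPM in Dsh libraries. The Dsh libraries were below the other 9, and neither single knockdown passed the test. The interaction of BCL2 was -1.55 [-1.45] (SE 0.152, edgeR adjusted p = 9.41e-05).

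S phase genes, which encode proteins of DNA replication, had 0 of 43 higher and 16 lower, with a median of -0.518 (-0.407 without shKDM5C replicate 1, where 30 were lower). The median single effects without that library were 6e-04 for shKDM5C and -0.0489 for shYY1, against -0.516 for Dsh. UNG, which removes uracil from DNA, had 119.8, 108 and 110.3 CPM in shNC, 65.6, 92.9 and 98.6 CPM in shKDM5C, 116, 116 and 122 CPM in shYY1 and 28.6, 28 and 27.4 CPM in Dsh libraries. Its interaction was -1.68 [-1.83] (SE 0.184, edgeR adjusted p = 0.000194). GINS2, a subunit of the replicative helicase, had 40.5, 35.5 and 35.4 CPM in shNC, 28.2, 30.6 and 29.4 CPM in shKDM5C, 37.5, 37.5 and 36.3 CPM in shYY1 and 13.3, 9.39 and 11.5 CPM in Dsh libraries, with an interaction of -1.37 [-1.38] (SE 0.177, edgeR adjusted p = 0.000567). In both genes the Dsh libraries were below the other 9. CDC6 (-0.69 [-0.64]), which loads the helicase, and RRM2 (-0.70 [-0.56]), which makes deoxynucleotides, were lower as well, while PCNA (-0.58 [-0.66], adjusted p up to 0.0568 with another library left out) was nearer the threshold. Outside this list, E2F2, a transcription factor of S phase entry, had an interaction of -1.79 [-1.96]. G2/M phase genes had 1 of 54 higher and 2 lower, and 6 higher and 17 lower without shKDM5C replicate 1. The lists were not tested against each other. Of the genes on which the study's text dwells, JAM3, an adhesion molecule, had 38.7, 42.6 and 44.9 CPM in shNC, 44, 39.5 and 39.3 CPM in shKDM5C, 28.5, 26.1 and 26.8 CPM in shYY1 and 15.3, 16.9 and 16.4 CPM in Dsh libraries. It fell in shYY1 cells and further in Dsh cells, with an interaction of -0.70 [-0.64] (SE 0.146, edgeR adjusted p = 0.00949) that was not called without a filter on low counts. The condensin subunit gene SMC2 had -1.19 (edgeR adjusted p = 0.0352, and up to 0.0869 with another library left out), and -0.72 without shKDM5C replicate 1, whose SMC2 level was 401 CPM against 184 and 191 in the other shKDM5C libraries. With 12 libraries, LMNB1 (-0.40, adjusted p = 0.112), FOXM1 (-0.35, adjusted p = 0.0642), SMC4 (-0.49, adjusted p = 0.211) and KNTC1 (-0.02, adjusted p = 0.956) did not pass the edgeR test. In the fit without that library the values were -0.51 for LMNB1 (edgeR adjusted p = 4.92e-07), -0.33 for FOXM1 (edgeR adjusted p = 0.00078), -0.18 for SMC4 (edgeR adjusted p = 0.0455) and 0.23 for KNTC1 (edgeR adjusted p = 0.019). The study reported a fall of these genes in ACHN double-knockdown cells, which is another measure than the interaction. For HK-2 cells it described RNA-seq changes as similar in pattern, and it measured YY1 at promoters of these genes. With all 12 HK-2 libraries, the log2 effect of both hairpins against shNC was -0.58 for LMNB1 and -0.51 for FOXM1 (edgeR adjusted p = 0.00142 and 0.000354). It was -0.25 for SMC4 and -0.13 for KNTC1 (edgeR adjusted p = 0.317 and 0.591). Without shKDM5C replicate 1 it was -0.24 for SMC4 and -0.115 for KNTC1 (edgeR adjusted p = 7.61e-05 and 0.0611). LMNB1 and FOXM1 passed in that fit too. For JAM3 the effect was -1.38, and -1.37 without that library (edgeR adjusted p = 1.67e-06 and 9.43e-14). For SMC2 it was -0.58, and -0.57 without that library (edgeR adjusted p = 0.0895 and 1.74e-10).

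Cytosolic ribosomal protein genes had 0 of 77 higher and 15 lower, with a median of -0.423 (-0.405 without shKDM5C replicate 1, where 60 were lower). In that fit their median effect was 0.512 in shYY1, -0.093 in shKDM5C and 0.0187 in Dsh cells, so the rise seen with the YY1 hairpin alone was not seen with both hairpins. RPS26, a subunit of the small ribosome, had 171, 163 and 162 CPM in shNC, 201, 158 and 142 CPM in shKDM5C, 233, 219 and 238 CPM in shYY1 and 109.7, 104 and 125 CPM in Dsh libraries. Every shYY1 library was above, and every Dsh library below, the shNC libraries, with an interaction of -1.04 [-0.87] (SE 0.17, edgeR adjusted p = 0.00238). RPS13 had -0.83 [-0.69] and RPL21 -0.77 [-0.60], adjusted p up to 0.0566 with another library left out. Many processed pseudogenes share reads with these genes, which leaves their counts uncertain. Nuclear genes of the respiratory chain had 0 of 74 higher and 8 lower (median -0.23, and -0.325 without that library), and mitochondrial ribosomal proteins had 0 of 74 higher and 5 lower (median -0.211, and -0.281). The 13 protein-coding genes of the mitochondrial genome had a median of -0.56 with shKDM5C replicate 1 and 0.0028 without it, the library with the 11.83% mitochondrial share.

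Genes of hypoxia and glycolysis split, with 4 of 32 higher and 11 lower. Among the lower were LDHA (-1.03 [-0.76]), ENO1 (-0.72 [-0.68]) and PGAM1, a glycolytic mutase with 816, 841 and 808 CPM in shNC, 1086, 1136 and 1138 CPM in shKDM5C, 1084, 1232 and 1269 CPM in shYY1 and 702, 667 and 742 CPM in Dsh libraries. PGAM1 rose in each single knockdown and lay below shNC in each Dsh library, with an interaction of -1.21 [-1.22] (SE 0.115, edgeR adjusted p = 7.2e-05). SLC2A3, a glucose transporter, went the other way, with 111, 105 and 106 CPM in shNC, 145, 169.6 and 176 CPM in shKDM5C, 67.8, 69.8 and 63.1 CPM in shYY1 and 406, 392 and 423 CPM in Dsh libraries. It rose in shKDM5C, fell in shYY1 and was highest in Dsh cells, with an interaction of 2.00 [1.93] (SE 0.129, edgeR adjusted p = 7.27e-06). P4HA2, which hydroxylates collagen, had 1.44 [1.39] and NDRG1 0.88 [0.78]. VEGFA was the other member called higher. Genes of cholesterol and fatty acid synthesis had 10 of 32 higher and 1 lower (median 0.463, 0.428 without shKDM5C replicate 1 and 0.284 with the GC dependence removed). MSMO1, a sterol oxidase, had 133, 143 and 126 CPM in shNC, 120.4, 120.3 and 128 CPM in shKDM5C, 102, 111 and 122 CPM in shYY1 and 214, 223 and 215 CPM in Dsh libraries, with an interaction of 1.08 [1.08] (SE 0.128, edgeR adjusted p = 0.000307). Each Dsh library was above all others in MSMO1 and in INSIG1 (0.95 [1.00]), a sensor that restrains sterol synthesis. HMGCS1, an early enzyme of the pathway, was the 1 member called lower (-0.47 [-0.43], adjusted p up to 0.067 with another library left out), and 15% of its exon bases are shared with an overlapping gene.

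Collagens, laminins and other matrix genes had 14 of 34 higher and 4 lower, with a median of 0.611 (0.534 without shKDM5C replicate 1, and 0.331 with the GC dependence removed). Without shKDM5C replicate 1 the median effect was -0.268 in shKDM5C, -0.331 in shYY1 and 0.173 in Dsh cells. TNC, which encodes tenascin-C, a glycoprotein of injured tissue, had 71.3, 72.7 and 69.1 CPM in shNC, 72.5, 72.4 and 75.2 CPM in shKDM5C, 42.9, 39.3 and 34.8 CPM in shYY1 and 139.9, 136 and 142 CPM in Dsh libraries. It fell in every shYY1 library and rose in every Dsh library, with an interaction of 1.79 [1.80] (SE 0.129, edgeR adjusted p = 1.23e-05). LAMB3 (2.03 [1.76]) encodes a laminin chain, and COL17A1 (1.84 [2.00], adjusted p up to 0.102 with another library left out) and COL7A1 (1.54 [1.22], adjusted p up to 0.051 with another library left out) encode other components of epithelial attachment. COL17A1 had only 9 to 41 counts per library. Neither its single effects nor its effect in Dsh cells (0.31, edgeR adjusted p = 0.572) passed the test. FN1, which encodes fibronectin, had 8669, 9045 and 8901 CPM in shNC, 13350, 12160 and 12270 CPM in shKDM5C, 6509, 6053 and 6261 CPM in shYY1 and 15920, 16120 and 16360 CPM in Dsh libraries, with an interaction of 0.86 [0.92] (SE 0.0959, edgeR adjusted p = 0.00022). THBS1, a matrix protein that activates TGF-beta, was lower, with 736, 762 and 708 CPM in shNC, 1162, 592 and 640.5 CPM in shKDM5C, 479, 471 and 459.7 CPM in shYY1 and 139, 127 and 136 CPM in Dsh libraries. It fell in shYY1 cells and fell much further in Dsh cells, and the interaction was -1.93 [-1.54] (SE 0.274, edgeR adjusted p = 0.00106). Matrix proteases and their inhibitors had 8 of 18 higher and 2 lower (median 0.751, and 0.923 without that library). PLAU, the urokinase that activates plasminogen, had 254, 250.3 and 266 CPM in shNC, 73.2, 211 and 223 CPM in shKDM5C, 227, 262 and 246 CPM in shYY1 and 961, 823 and 881 CPM in Dsh libraries, with an interaction of 2.46 [2.11] (SE 0.408, edgeR adjusted p = 0.00259). An overlapping gene on the opposite strand, C10orf55, shares 31.1% of its exon bases. The urokinase receptor gene PLAUR (2.01 [1.63]) was higher too, and MMP7 was lower (-0.95 [-1.04]).

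Cytokines and chemokines had 7 of 19 higher and 1 lower (median 0.887, and 0.76 without shKDM5C replicate 1). CXCL8, which attracts neutrophils, had 75.6, 93.3 and 93.9 CPM in shNC, 51.1, 54.3 and 56.9 CPM in shKDM5C, 64.6, 82.7 and 95.4 CPM in shYY1 and 205, 221 and 204 CPM in Dsh libraries, with an interaction of 2.07 [2.04] (SE 0.191, edgeR adjusted p = 6.14e-05). All shKDM5C libraries were below shNC and all Dsh libraries above. CXCL2 had 1.97 [1.56], adjusted p up to 0.112 with another library left out. IL6, VEGFA and CCL20 were the others called higher besides IL11 and CSF2, and IL18 was lower (-1.16 [-1.03]). NF-kB subunits and feedback genes had 5 of 17 higher and 1 lower. TNFAIP3, a brake on NF-kB signalling, had 28.2, 30.3 and 32 CPM in shNC, 25.1, 37.9 and 33.8 CPM in shKDM5C, 28, 29 and 27.5 CPM in shYY1 and 111, 97.9 and 104 CPM in Dsh libraries, with an interaction of 1.79 [1.65] (SE 0.189, edgeR adjusted p = 0.00015). The summed CPM of 8 leukocyte markers was 10.2 to 12.5 in Dsh, 7.57 to 8.97 in shNC, 5.87 to 9 in shKDM5C and 4.25 to 5.37 in shYY1 libraries, and its part in these results was not tested. Summed renal tubular epithelium markers were 2400 to 2530 CPM in Dsh, 3920 to 4030 in shNC, 4120 to 4220 in shKDM5C and 2900 to 3080 in shYY1 libraries. These libraries all come from the HK-2 line, so the sums are transcript levels and no count of cell types. Members of the tubular list moved both ways. KRT8 averaged 1849 CPM in shNC and 816 CPM in Dsh cells, and PAX8 257 and 309 CPM. Fewer cells with a transcript and less of it per cell cannot be told apart in such bulk samples.

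TGF-beta and BMP genes moved in both directions, with 4 of 22 higher and 7 lower. The ID genes encode inhibitors of basic helix-loop-helix factors and are classic targets of BMP signalling. ID3 had 103, 94.9 and 113 CPM in shNC, 68.2, 234 and 235 CPM in shKDM5C, 138, 128 and 144 CPM in shYY1 and 34.6, 30.5 and 30.9 CPM in Dsh libraries. In shKDM5C replicates 2 and 3 it was above every shNC and shYY1 library, whereas replicate 1 was below them, and Dsh libraries were lowest of all. The interaction of ID3 was -2.89 (SE 0.463, edgeR adjusted p = 0.00211), and -3.26 (SE 0.0926, edgeR adjusted p = 3.49e-20) without replicate 1. ID2 had 31.7, 38.5 and 38.5 CPM in shNC, 45.4, 80.1 and 80.9 CPM in shKDM5C, 45.6, 51 and 55.9 CPM in shYY1 and 23.3, 23.3 and 24.4 CPM in Dsh libraries, with an interaction of -2.03 [-2.24] (SE 0.265, edgeR adjusted p = 0.000609). The ligand genes BMP4 (-1.50 [-1.60]) and BMP2 (-1.03 [-1.02]) were lower as well. So were the inhibitory SMAD6 (-0.98 [-1.17], adjusted p up to 0.0519 with another library left out) and TGFB2 (-0.99 [-0.67], adjusted p up to 0.0641 with another library left out), though 26.6% of the exon bases of TGFB2 are shared with an overlapping gene, and ID1 completed the 7. SMAD9, a transducer of BMP signals, had 3.79, 5.33 and 4.7 CPM in shNC, 17, 8.13 and 10.8 CPM in shKDM5C, 6.52, 4.47 and 5.13 CPM in shYY1 and 1.55, 2.01 and 1.15 CPM in Dsh libraries, with an interaction of -3.14 [-2.79] (SE 0.416, edgeR adjusted p = 0.000661). ATOH8, a transcription factor gene that BMP signals induce, had 2.79, 5.67 and 5.12 CPM in shNC, 7.01, 15.9 and 12.6 CPM in shKDM5C, 2.99, 3.8 and 5.07 CPM in shYY1 and 1.25, 1.18 and 0.805 CPM in Dsh libraries, with an interaction of -3.26 [-3.51] (SE 0.506, edgeR adjusted p = 0.00172). The highest group was shKDM5C and the lowest Dsh for both. INHBA, the activin A subunit, had 138, 158 and 155 CPM in shNC, 121, 88.8 and 91 CPM in shKDM5C, 156, 163 and 189.8 CPM in shYY1 and 548, 519.5 and 608 CPM in Dsh libraries, with an interaction of 2.30 [2.47] (SE 0.183, edgeR adjusted p = 1.83e-05). TGFB1 (1.20 [1.07]) was higher too.

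**Figure D4:**
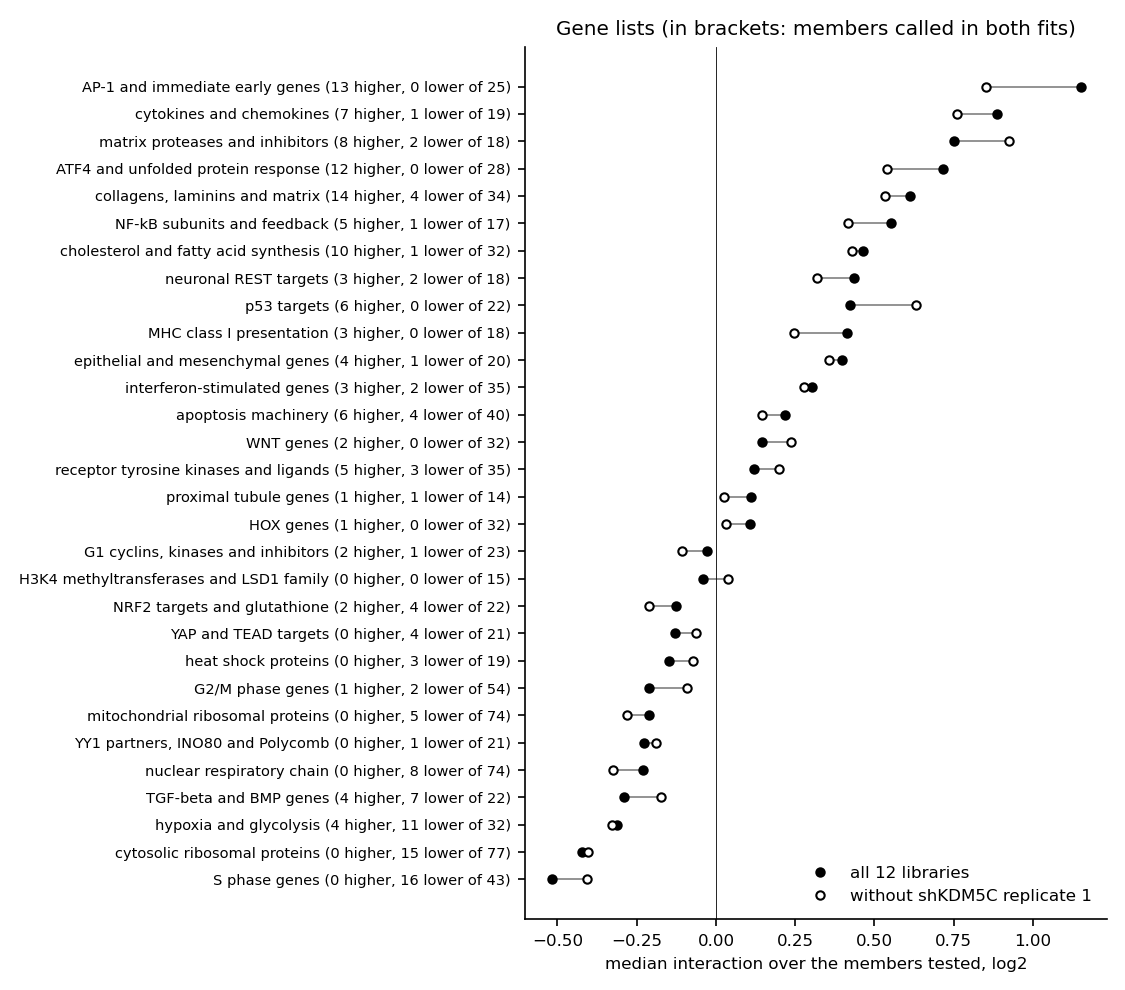
Median interaction (x axis, log2) over the tested members of each list with 14 or more of them, with all 12 HK-2 libraries (filled) and without shKDM5C replicate 1 (open), with the numbers of members called in both fits in brackets. Among the filled points AP-1 and immediate early genes stand at the top (1.15) and S phase genes at the bottom (-0.518), and among the open points matrix proteases and inhibitors stand at the top (0.923) and S phase genes at the bottom (-0.407).

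The same contrast was taken in ACHN cells to see which interactions were shared between the lines. In ACHN cells alone, 9586 of 17228 genes had an interaction (55.6%), 4625 of them positive and 4961 negative. Of the 1638 HK-2 genes, 1527 were tested in ACHN cells, 775 were called there in the same direction, 363 in the opposite direction and 389 were not called. The 775 are 47.3% of all 1638 HK-2 genes, those not tested in ACHN cells included, and 8.08% of the ACHN genes. The share of 55.6% counts both directions, so it is read against the 775 and the 363 together and not against the 775 alone. The difference between the lines was tested with all 24 libraries. It was positive for 2339 genes (12.3% of 19082) and negative for 1917 (10%). Without HK-2 shKDM5C replicate 1 the counts were 3561 (18.1%) and 3012 (15.3%) of 19718. Of the 1638 HK-2 genes, 892 differed between the lines in both of these fits.

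ID3 had an interaction of -3.01 (SE 0.126, edgeR adjusted p = 2.57e-16) in ACHN cells, close to that in HK-2 cells, and ASB2 had 3.42 (SE 0.433, edgeR adjusted p = 2.42e-07), KCNN4 2.85 and PAX2 -2.33. The difference between the lines (HK-2 minus ACHN) was 0.14 (SE 0.53) for ID3, -0.27 (SE 0.497) for ASB2, 0.22 (SE 0.509) for KCNN4 and 0.30 (SE 0.487) for PAX2. None of the 4 passed the edgeR test with or without shKDM5C replicate 1, which does not show that the lines act alike. Genes of the stress responses differed among themselves in ACHN cells. BTG2 (1.56), SESN2 (1.53), PLK3 (0.99) and CDKN1A (0.46) were called there with the same sign as in HK-2 cells. ASNS (-1.28), ATF3 (-1.20), SLC7A11 (-1.17) and XBP1 (-0.80) were called with the opposite sign. Others had no called interaction. DDIT3 had -0.03 (SE 0.14, edgeR adjusted p = 0.87) in ACHN cells, TRIB3 0.03 and TNFRSF10B 0.09, and each differed from HK-2 cells (adjusted p = 7.41e-05, 6.57e-06 and 6.98e-06, edgeR). Signs were opposite in PDK4, with 3.53 (SE 0.384, edgeR adjusted p = 1.92e-08) in ACHN cells, in WNT9A (-1.44), in PLEKHG4B (-0.65) and in BCL2 (0.83). FN1 was higher in both lines, with 3.51 in ACHN cells, and the difference was -2.62 (SE 0.104) (edgeR adjusted p = 4.42e-14). UNG (-1.32) and GINS2 (-1.95) were lower in ACHN cells too.

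**Figure D5:**
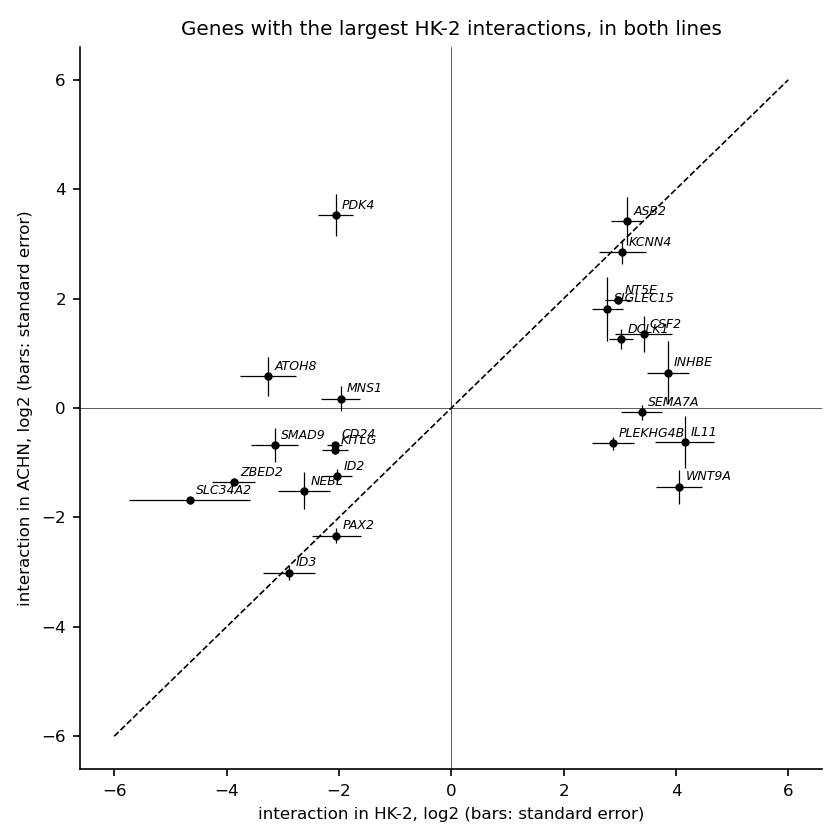
Interaction in HK-2 cells (x axis, log2) and in ACHN cells (y axis, log2) of the 23 genes tested in both lines among the 28 with the largest HK-2 interactions, with standard errors as bars and a dashed line at equal values. ID3, PAX2, ASB2 and KCNN4 lie near the line. In ACHN cells 14 of the 23 were called with the same sign and 3 with the opposite sign, namely PDK4, WNT9A and PLEKHG4B.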

How the data were processed

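RNA was sequenced from 12 HK-2 and 12 ACHN libraries. The counts deposited by the authors are read pairs per gene. Per the labels and the study's methods, reads were aligned to GRCh38 with HISAT2 (version 2.0.5) and counted with featureCounts (version 1.5.0-p3 in these notes, 2.0.1 per the file headers) on Ensembl genes. No strand option was set, so overlapping genes cannot be told apart.

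From the counts, edgeR (version 4.0.16, R version 4.3.3) was used with TMM scaling, its default filter on low counts, a quasi-likelihood fit of the 4 HK-2 groups and the contrast Dsh − shKDM5C − shYY1 + shNC. P-values were adjusted over all genes tested by the Benjamini-Hochberg method. The difference between the lines was fitted over all 24 libraries. The study's methods compared pairs of groups with DESeq2, which was run here (version 1.42.0) as an alternative beside other scalings, filters, limma voom (version 3.58.1), a replicate block and the omission of each library. A removal of each library's GC dependence was an alternative chosen after seeing the data. The fit was tested on simulated data.

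The experiment, the gene lists and the tests were chosen with earlier results of these data known. Genes named were KDM5C, YY1 and their paralogs, the genes of the study's text, the 14 with the largest interaction in each direction among protein-coding genes called in both fits at 10 CPM or more in a group, and up to 4 per list by size. The other list members named were chosen after their values were seen, and a few results are not reported here. Of 60675 genes, 41209 had a symbol. Total counts of 15926561 to 18755684 per HK-2 library limit the precision of genes near 0.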

Additional observations from a re-analysis of the deposited data

Results flagged for a closer look

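The interaction differed between HK-2 and ACHN cells, by the test of the difference itself over 24 libraries, for 4256 genes (edgeR, adjusted p under 0.05). Among the genes with the largest HK-2 interactions, the genes of the study's text and the targets with their paralogs, 21 differed. The difference is given below as HK-2 minus ACHN on the log2 scale.

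Among genes with a positive HK-2 interaction, the difference was 5.52 for WNT9A, 4.78 for IL11, 3.57 for PLEKHG4B, 3.48 for SEMA7A and 3.22 for INHBE. It was 2.09 for CSF2, 1.78 for DCLK1 and 1.02 for NT5E, genes whose interaction was also positive in ACHN cells (1.35, 1.26 and 1.98). Among genes with a negative HK-2 interaction, the difference was -8.88 for SLC2A2, -5.56 for PDK4, -3.83 for ATOH8, -2.95 for SLC34A2, -2.51 for ZBED2, -2.43 for SMAD9, -2.11 for MNS1, -1.38 for CD24 and -1.28 for KITLG. SLC2A2 was not among the genes tested in ACHN cells alone, where its counts were too low, so its difference rests on values near 0 in that line. The YY1 paralog YY2 had -2.08. Of the genes of the study's text, JAM3 had -0.49, LMNB1 -0.49 and FOXM1 1.02. No explanation for these differences was tested.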

How the results depend on the processing

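The count of 1642 interactions (890 higher, 752 lower) stayed within 1.5 times under other scalings (1634 and 1585), filters (1692 and 2249), robust dispersions (1595) and DESeq2 (2425). The labels do not say whether same-numbered libraries belong together. None of 18 pairs of same-numbered libraries correlated above 0.1 (-0.232 to 0.0936), which cannot show that they were prepared separately. With a replicate block there were 1214 calls, and 4980 (2596 higher, 2384 lower) with the block and without shKDM5C replicate 1. Without a filter on low counts, 1369 were higher. Sample quality weights in limma voom, which gave shKDM5C replicate 1 a weight of 0.0432 against 1.09 to 1.59 for the others, called 5129 (2572 higher, 2557 lower, 592 at a log2 size of 1.5 or more). At an unadjusted p under 0.05 there were 4228 (2116 higher, 2112 lower). Leaving out 1 library gave 957 to 5065 calls in all, 541 to 2650 higher, 394 to 2415 lower and 251 to 535 at a log2 size of 1.5 or more, and the top values were those without shKDM5C replicate 1. The counts were 962, 1011 and 964 without shNC replicates 1, 2 and 3, 1019 and 980 without shYY1 replicates 2 and 3, and 957, 1018 and 1050 without Dsh replicates 1, 2 and 3. With the GC dependence removed there were 3097 calls (1279 higher, 1818 lower), and 1482 of the 1642 genes were called in the same direction. The sign was opposite for 3 of the 1642 under that setting and for 0 under the others. The difference between the lines was called for 6573 genes without shKDM5C replicate 1. The causes of these shifts were not tested.

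Of the 166 genes named by the rule or with a value, 45 lost their call under at least 1 alternative, and none of them did so without shKDM5C replicate 1. The sign of small interactions turned for 4 genes. KNTC1 had 0.0857 with total counts, 0.0143 without a filter, 0.2154 with limma voom, 0.1328 with the GC dependence removed and -0.1397 to 0.2336 with 1 library left out. KDM5A had 0.1872 with limma voom and -0.3196 to 0.2031 with 1 library left out. In the latter fits KDM5C ranged from -0.315 to 0.0423 and YY1 from -0.0397 to 0.1488. List medians moved with the GC dependence removed to 0.331 for matrix genes, -0.32 for NRF2 targets and 0.284 for cholesterol synthesis. Depth limits genes near 0 counts in some groups, such as SLC34A2.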

Other observations

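Further lists are given here by their counts and leading members, with the interaction without shKDM5C replicate 1 in square brackets. Many counts were near the shares of all genes called, 5.2% higher and 4.39% lower, and no list was tested. Neuronal genes repressed by REST had 3 of 18 higher and 2 lower. VGF, a secreted neuropeptide precursor, had 30.7, 23.8 and 26.5 CPM in shNC, 15.4, 30.9 and 30.8 CPM in shKDM5C, 16.3, 16.1 and 14.5 CPM in shYY1 and 70.2, 68.3 and 62.5 CPM in Dsh libraries, with an interaction of 2.17 [1.92] (SE 0.3, edgeR adjusted p = 0.000884). SNAP25, part of the vesicle fusion machinery, had 1.75 [1.62], UNC13A 1.18 [1.33] and the intermediate filament gene INA -1.13 [-0.89]. Receptor tyrosine kinases and their ligands had 5 of 35 higher and 3 lower. FGFR2, a receptor for fibroblast growth factors, had 131, 129.5 and 130.3 CPM in shNC, 94, 121 and 118 CPM in shKDM5C, 92.2, 90.8 and 84.8 CPM in shYY1 and 25, 16.8 and 23.6 CPM in Dsh libraries. Each Dsh library was below the other 9, and the interaction was -1.80 [-1.90] (SE 0.197, edgeR adjusted p = 0.000194). GFRA1, a co-receptor for GDNF, had -1.37 [-1.19], while the ligand genes PDGFB (1.68 [1.48]) and AREG (1.44 [1.24]) were higher. Heat shock proteins had 0 of 19 higher and 3 lower. HSP90AA1, a cytosolic chaperone, had 1430, 1471 and 1460 CPM in shNC, 1903, 1126 and 1128 CPM in shKDM5C, 1413, 1476 and 1493 CPM in shYY1 and 482, 502 and 539 CPM in Dsh libraries, with an interaction of -1.46 [-1.14] (SE 0.23, edgeR adjusted p = 0.00193), and HSPA8 had -0.74 [-0.62].

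Of 13 kidney lineage transcription factors, 2 were higher and 1, PAX2, was lower. LHX1 had 1.31 [1.13] and PAX8 0.67 [0.56], adjusted p up to 0.0634 with another library left out. GATM, the creatine synthesis enzyme of proximal tubule, had 1.33 [1.36], and CD44, a matrix receptor of injured tubule, had 213, 219 and 209 CPM in shNC, 224, 169 and 187 CPM in shKDM5C, 251, 258 and 250.2 CPM in shYY1 and 543, 519 and 577 CPM in Dsh libraries, with an interaction of 1.25 [1.39] (SE 0.142, edgeR adjusted p = 0.000231). Keratins had 2 of 10 higher and 2 lower, and KRT7 had 1.25 [1.03] and KRT8 -0.58 [-0.64], the latter not called with total counts as scaling. Epithelial and mesenchymal genes had 4 of 20 higher and 1 lower, among them SNAI2, a repressor of epithelial genes (2.13 [1.73], adjusted p up to 0.0661 with another library left out). SNAI2 had only 1 to 95 counts per library, with means of 4.04 CPM in shYY1 and 4.55 CPM in Dsh cells. Interferon-stimulated genes had 3 of 35 higher and 2 lower, where IFIT2 had 1.68 [1.55]. Genes of MHC class I presentation had 3 of 18 higher, and TAP1, a peptide transporter, had 1.04 [0.88]. NF-kB feedback genes included ICAM1 (1.58 [1.40]), with 23.6% of its exon bases shared with other genes. NRF2 targets had 2 of 22 higher and 4 lower, where ABCC3 had 0.94 [0.83] and GSTM3 -1.07 [-1.11]. YAP and TEAD targets had 0 of 21 higher and 4 lower, with ANKRD1 at -1.33 [-1.18] and F3, the tissue factor gene, at -1.08 [-1.17].

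WNT genes had 2 of 32 higher, WNT9A and DKK3 (1.33 [1.19]), and HOX genes had 1 of 32, HOXC10 (0.96 [0.75], adjusted p up to 0.121 with another library left out). G1 regulators had 2 of 23 higher and 1 lower, and metallothioneins 1 of 5 higher, MT1X (1.12 [1.03]). Among YY1 partners, INO80 and Polycomb genes, 1 of 21 was lower, CTCF (-0.72 [-0.60]). None of the 15 histone H3 lysine 4 methyltransferases and relatives tested was called in both fits. Summed podocyte markers were 104 to 108 CPM in shNC, 69.5 to 79.4 in shKDM5C, 80.5 to 97.5 in shYY1 and 67.4 to 72.8 in Dsh libraries. Summed fibroblast and pericyte markers were 742 to 792 CPM in shNC, 1050 to 1200 in shKDM5C, 827 to 933 in shYY1 and 874 to 934 in Dsh libraries, highest in shKDM5C. Endothelial markers summed to 3.45 to 3.73 CPM in shNC, 2.9 to 3.51 in shKDM5C, 1.92 to 2.57 in shYY1 and 3.34 to 4.61 in Dsh libraries. Distal nephron markers summed to 3.48 to 4.74 CPM in shNC, 2.27 to 2.96 in shKDM5C, 2.5 to 4.47 in shYY1 and 1.38 to 1.85 in Dsh libraries. Erythroid markers reached at most 0.354 CPM in a library.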
